A study of Mus musculus with 4 samples.

Results

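Kupffer cells, the resident macrophages of the liver, were examined in single-nucleus RNA-Seq data from mouse liver. They were taken as the nuclei whose deposited cluster name begins with Kup, which gave 80 of 5193 nuclei. The nuclei came from 3 WT and 3 HNKO mice, all adult females fed a purified control diet (PD) for several weeks. HNKO mice lack Nampt, the rate-limiting enzyme of NAD salvage, in hepatocytes: both alleles of Nampt are floxed and Cre is driven by the albumin promoter. WT mice were floxed littermates without Cre, and the labels give the strain as C57BL6/BomTac Nampt cKO. Because albumin is a hepatocyte gene, Kupffer cells are not a target of this Cre. Whether the drinking water of these 6 mice held a supplement is not given in the sources used here.

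Kupffer cells line the liver sinusoids, where they clear particles, bacteria, complement-coated material and aged red blood cells from portal blood. Most are seeded in the embryo and renew locally, and monocytes recruited from blood can take up their place and program after injury. Their identity is held by a set of macrophage transcription factors that includes PU.1 and LXRα, and their surface is rich in scavenger and complement receptors.

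Kupffer nuclei held a median of 3088 UMIs (range 1808 to 14439) and 1614 genes, and 299489 UMIs in all. UMIs are unique molecular identifiers, each marking 1 captured RNA molecule. Of these UMIs 78.1% were unspliced, as is usual for nuclear RNA. The summed depth per mouse was 20666, 31825 and 12839 UMIs in WT 1, 2 and 3, and 103069, 37111 and 93979 UMIs in HNKO 1, 2 and 3, so WT levels rest on fewer molecules. The most numerous white blood cell cluster, CD45+ 1, was sequenced to a like depth, with a median of 3002 UMIs over 105 nuclei, and no barcode occurred more than once. The hashtag assigned to the mouse was also the highest hashtag in all Kupffer nuclei except 10 of the 25 of HNKO 3. In those 10 nuclei the highest hashtag was that of HNKO 1, so the genotype is the same either way, but the split between these 2 mice is uncertain.

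Promoter sequences of 3 genes that set Kupffer nuclei apart from other nuclei are shown to place the regulatory regions of the identity program. Each is the 250 bases upstream of the RefSeq start of the gene in GRCm38.p6, printed 5′ to 3′ on the strand of the gene. The windows lie at chr11:46810549-46810798 on the plus strand for Timd4, chrX:96293439-96293688 on the minus strand for Vsig4, and chr3:87357631-87357880 on the plus strand for Cd5l. Capitals mark GAGGAA, or its reverse complement TTCCTC, the core letters bound by PU.1.
Timd4: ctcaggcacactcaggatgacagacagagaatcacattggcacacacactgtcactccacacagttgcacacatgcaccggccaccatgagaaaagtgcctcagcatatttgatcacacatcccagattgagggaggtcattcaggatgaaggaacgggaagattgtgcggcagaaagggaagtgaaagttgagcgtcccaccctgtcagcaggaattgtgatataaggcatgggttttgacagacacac
Vsig4: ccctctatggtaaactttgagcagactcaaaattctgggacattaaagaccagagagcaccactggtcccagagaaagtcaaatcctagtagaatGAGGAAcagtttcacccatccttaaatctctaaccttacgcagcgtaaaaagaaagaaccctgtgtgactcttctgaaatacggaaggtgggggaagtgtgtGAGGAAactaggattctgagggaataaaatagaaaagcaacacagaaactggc
Cd5l: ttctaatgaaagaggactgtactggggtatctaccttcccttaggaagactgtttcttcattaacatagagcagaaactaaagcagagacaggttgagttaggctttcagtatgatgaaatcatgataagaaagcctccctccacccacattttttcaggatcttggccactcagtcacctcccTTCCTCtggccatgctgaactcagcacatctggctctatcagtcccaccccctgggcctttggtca
The Timd4 window held 0 matches, the Vsig4 window 2 and the Cd5l window 1. Of all 32851 promoter windows of this length 23.3% held the letters, compared with 4 of the 16 windows of the genes ranked highest against all other nuclei and 5 of the 10 windows of the Kupffer list described next. A match describes the letters only.

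All 12 genes of a Kupffer list were detected in Kupffer nuclei, each with 10 UMIs or more, and each had a higher level there than in CD45+ 1. As the clusters were made from these same values, levels between clusters are descriptions without a test. Levels are given in CPM, the UMIs of a gene scaled to a common total of UMIs over the pooled nuclei. Clec4f, a lectin receptor for galactose-containing ligands (chromosome 6, 83644542 to 83656187, minus strand, GRCm38), had 278 UMIs in 73 of 80 nuclei. Its level was 928 CPM in Kupffer nuclei, 47.7 CPM in CD45+ 1 and 1.86 CPM in hepatocytes. Vsig4, a receptor for complement C3 fragments (chromosome X, 96247203 to 96293438, minus strand), had 467 UMIs in 70 nuclei, and its level was 1559 CPM against 74.2 CPM in CD45+ 1. Cd5l, a secreted scavenger protein of macrophages (chromosome 3, 87357881 to 87371073, plus strand), had 442 UMIs in 77 nuclei, and its level was 1476 CPM against 76.9 CPM. Adgre1, which encodes F4/80 and is shared by most tissue macrophages (chromosome 17, 57358691 to 57483527, plus strand), was less particular, at 1056 CPM against 292 CPM.

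The 4 markers were found together in most Kupffer nuclei. All 4 were seen in 54 nuclei, 3 in 22, 2 in 3 and 1 in 1. Of the 5113 other nuclei 7 had 3 or more, 4 of them in CD45+ 1. When every nucleus was thinned to 1000 UMIs, Clec4f was seen in 58.8%, Vsig4 in 67.5%, Cd5l in 72.5% and Adgre1 in 62.5% of Kupffer nuclei. The thinned shares in hepatocytes, which should lack these genes, were 0.340%, 0.272%, 0.499% and 0.181%. In CD45+ 1, the cluster most like Kupffer nuclei, the thinned shares of Vsig4 (3.81%) and Cd5l (5.71%) were higher than in hepatocytes. Those of Clec4f and Adgre1 in CD45+ 1 are not given here. Of the 4 markers Adgre1 had the highest level in CD45+ 1, so the 2 shares given do not stand for it. Before thinning the median UMI count was 3088 in Kupffer nuclei and 4484 in hepatocyte nuclei. The labelled nuclei carried these 4 markers. The authors named clusters by cell type markers, so this describes the label and is no test of it.

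**Figure D1:**
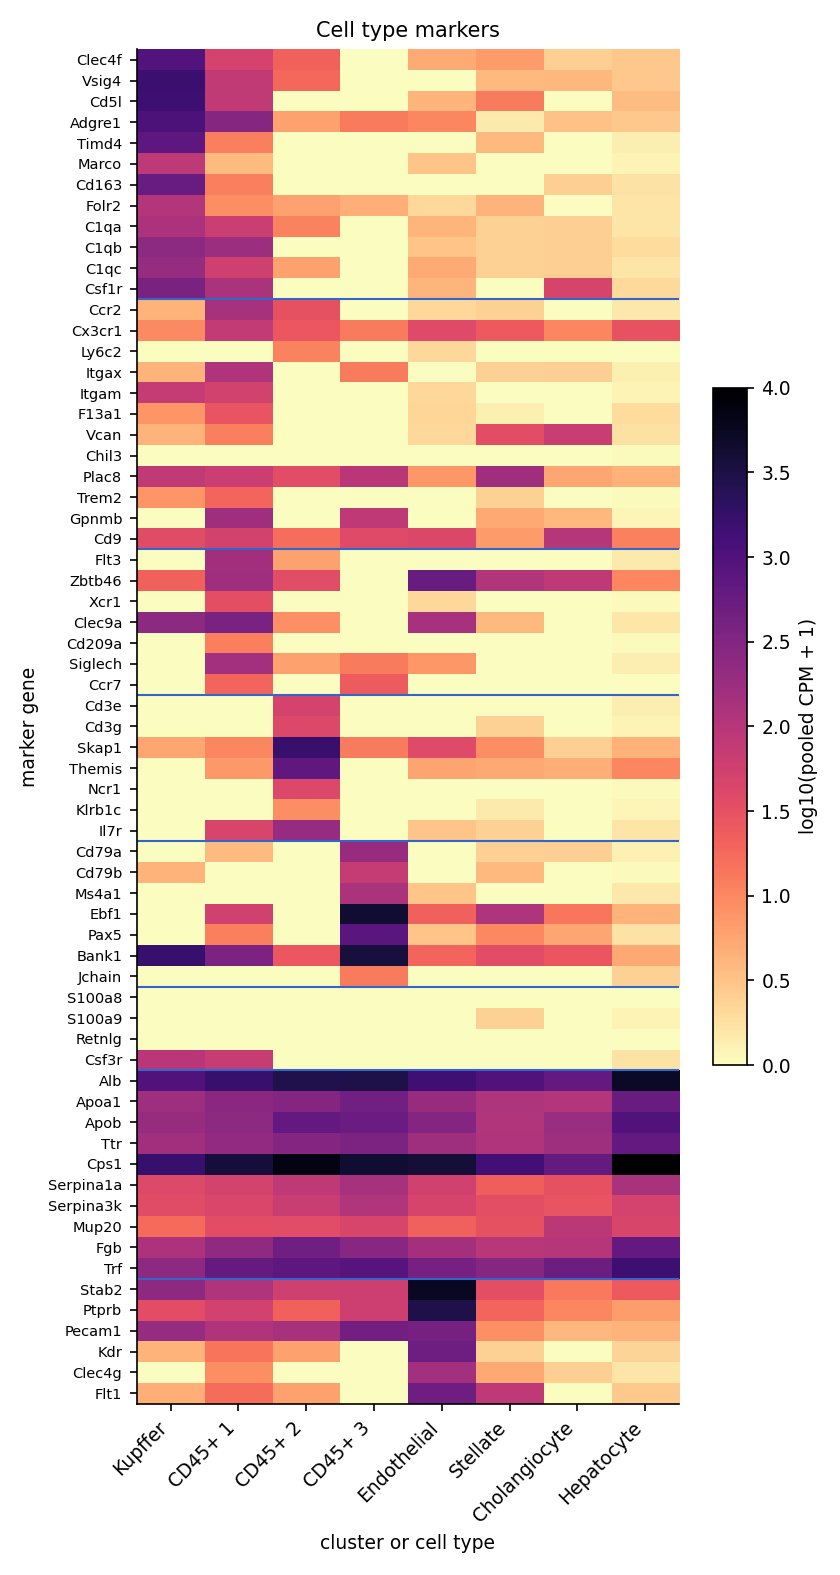
Pooled level of each marker gene (rows) in each cluster (columns), colored by log10(CPM + 1), with blue lines between the lists of Kupffer, monocyte and recruited macrophage, dendritic, T and NK, B and plasma, neutrophil, hepatocyte and endothelial genes. The Kupffer list is darkest in the Kupffer column, where Clec4f was at 928 CPM and Vsig4 at 1559 CPM, and Bank1 is the dark exception in the B cell list.

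Timd4, the phosphatidylserine receptor carried by embryo-derived Kupffer cells (chromosome 11, 46810800 to 46844332, plus strand), was seen in 60 of 80 Kupffer nuclei, at 715 CPM against 10.6 CPM in CD45+ 1. Its level was 436, 974 and 1168 CPM in WT 1, 2 and 3 and 708, 728 and 628 CPM in HNKO 1, 2 and 3, and the groups overlapped. Without the 1 nucleus of WT 2 with the most UMIs, Timd4 was 1783 CPM in that mouse. Of the 20 nuclei without a Timd4 UMI, 18 had Clec4f. Cd163, the receptor for haemoglobin bound to haptoglobin (chromosome 6, 124304656 to 124330527, plus strand), was seen in 46 nuclei, at 581 CPM against 10.6 CPM. Cd163 varied widely between mice, with 145, 157 and 1090 CPM in WT and 1096, 539 and 202 CPM in HNKO, and 288 CPM in WT 2 without that nucleus. Marco, a bacterial scavenger receptor, had 25 UMIs in 8 nuclei, 10 of them in 1 nucleus.

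Among the 4 markers Clec4f was 1016, 471 and 1013 CPM in WT and 970, 1078 and 947 CPM in HNKO, with the lowest value in WT 2. In WT 2 a single nucleus held 14439 of the 31825 Kupffer UMIs, with no UMI of Clec4f, and without it Clec4f was 863 CPM in WT 2. Vsig4 was 581, 1068 and 1168 CPM in WT and 1824, 2263 and 1426 CPM in HNKO, and the groups did not overlap, as held in this direction for 6.10% of all genes tested. Without that nucleus Vsig4 was 1841 CPM in WT 2, and the groups overlapped. Cd5l was 1210, 1005 and 623 CPM in WT and 1193, 1805 and 1990 CPM in HNKO. Adgre1 was 1016, 724 and 857 CPM in WT and 1048, 1570 and 1011 CPM in HNKO, the 2 groups overlapping only narrowly. Without that nucleus Cd5l was 1495 CPM and Adgre1 1265 CPM in WT 2.

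**Figure D2:**
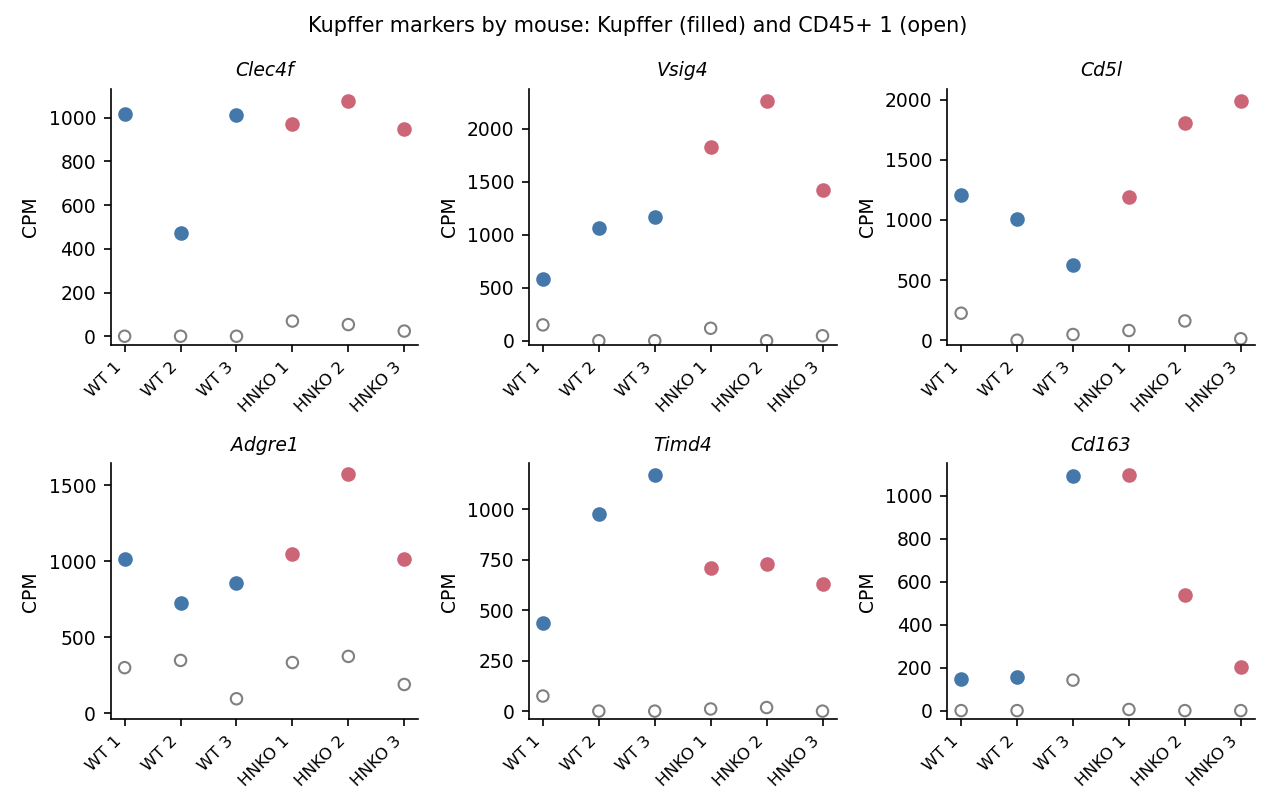
Level of 6 marker genes in each mouse, in CPM, with Kupffer nuclei as filled points (WT blue, HNKO red, n = 3 each) and CD45+ 1 nuclei as open points. Clec4f and Timd4 overlapped between groups. Vsig4 did not, with 581 to 1168 CPM in WT and 1426 to 2263 CPM in HNKO, but overlapped without 1 nucleus of WT 2, which was then at 1841 CPM.

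Genes of blood-derived myeloid cells were low in Kupffer nuclei. Of 12 monocyte and recruited macrophage genes 9 were detected, and the list summed to 216 CPM against 704 CPM in CD45+ 1. Ccr2, the chemokine receptor that brings monocytes out of the marrow, was 3.34 CPM against 138 CPM. Itgax (CD11c) was 3.34 CPM against 111 CPM, and Cx3cr1, the fractalkine receptor, was 8.35 CPM against 72.9 CPM. Gpnmb, a marker of lipid-laden macrophages, had no UMI in Kupffer nuclei and was 159 CPM in CD45+ 1. A narrower set held Ccr2, Itgax, Gpnmb, Trem2 and Cx3cr1 of this list with the dendritic cell gene Flt3. A UMI of that set was seen in 5 of 80 Kupffer nuclei and in 74 of 105 CD45+ 1 nuclei. Over the full list of 12 genes a UMI was seen in 31 Kupffer nuclei, with 2 or more UMIs in 11. That count is not given here for CD45+ 1. Not every member of the full list was lower. Itgam (CD11b) was 70.1 CPM against 51.7 CPM and Plac8 was 76.8 CPM against 63.6 CPM, and neither is in the narrower set.

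Markers of other cell types ranged from 0 to levels above those in CD45+ 1. Flt3, Xcr1, Cd209a, Siglech and Ccr7 of the dendritic cell list were at 0, and so were Ebf1, Pax5, Ms4a1, Cd79a and Jchain of the B and plasma cell list. Of the T and NK cell list 6 of 7 measured genes were at 0. Bank1, a B cell adaptor protein, was an exception, with 505 UMIs in 74 Kupffer nuclei and a level of 1685 CPM against 354 CPM in CD45+ 1 and 3608 CPM in CD45+ 3. Clec9a, a dendritic cell receptor for dead cells, was seen in 41 Kupffer nuclei at 251 CPM, against 365 CPM in CD45+ 1 and 133 CPM in endothelial nuclei. Clec9a overlaps Clec1b on the same strand, so its reads cannot be assigned with certainty. The endothelial gene Stab2 was 244 CPM against 5520 CPM in endothelial nuclei, and Pecam1 was 200 CPM against 410 CPM, while Clec4g was at 0 and Kdr and Flt1 were at 3.34 and 3.71 CPM. The 6 endothelial genes summed to 484 CPM, with a UMI in 59 of 80 Kupffer nuclei, against 321 CPM in CD45+ 1 and 333 CPM in all other nuclei, and by mouse they summed to 220 to 677 CPM in WT and 161 to 815 CPM in HNKO. The part of endothelial RNA in other results was not tested. The stellate and cholangiocyte lists summed to 33.4 and 52.9 CPM.

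Of 17 macrophage transcription factors 12 were higher and 5 lower in Kupffer nuclei than in CD45+ 1. Nr1h3, which encodes the sterol receptor LXRα, was 299 CPM against 61.0 CPM, and its partner Rxra was 331 CPM against 95.5 CPM. Spic, a factor of iron-recycling macrophages, was 66.8 CPM against 15.9 CPM, and Tfec was 367 CPM against 61.0 CPM. Spi1 (PU.1), used by macrophages in general, differed less, at 254 CPM against 172 CPM. Zeb2 was 4501 CPM against 2882 CPM. Rbpj, the nuclear effector of Notch signals, was lower at 88.6 CPM against 687 CPM, Runx1 was 958 CPM against 1199 CPM, and Irf8 was at 0.

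Receptors for uptake were higher in Kupffer nuclei for 12 of 15 genes. Mertk, a receptor for apoptotic cells, was seen in all 80 nuclei, at 1899 CPM against 768 CPM in CD45+ 1. Msr1, a scavenger receptor for modified lipoproteins, was 1015 CPM against 270 CPM. Mrc1, the mannose receptor, was 1274 CPM against 424 CPM but 1393 CPM in endothelial nuclei, so it did not separate Kupffer from endothelial nuclei. Lrp1 was 514 CPM against 253 CPM, while Stab1 was lower at 80.1 CPM against 138 CPM and Cd36 at 154 CPM against 223 CPM.

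Complement genes were higher for 8 of 11 members. C6, a part of the membrane attack complex, was 989 CPM against 39.8 CPM in CD45+ 1, and Cfp (properdin), which stabilises the alternative pathway convertase, was 144 CPM against 10.6 CPM. C3, the central complement protein, was lower at 110 CPM against 175 CPM. C1qa, C1qb and C1qc, which encode the chains of C1q, were 120, 254 and 204 CPM against 63.6, 175 and 55.7 CPM.

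Of 10 iron and heme genes 6 were higher. Slc40a1, which encodes the iron exporter ferroportin, was 1856 CPM against 220 CPM in CD45+ 1. It was 3048, 1697 and 2103 CPM in WT and 1543, 2102 and 1862 CPM in HNKO, and the groups overlapped. Without the same WT 2 nucleus it was 2876 CPM in that mouse, and the groups no longer overlapped, with 2103 CPM in WT 3 next to 2102 CPM in HNKO 2. The share of all genes not overlapping without that nucleus is not given here. Hmox1, which degrades heme, was 83.5 CPM against 55.7 CPM, Blvrb was 174 CPM against 63.6 CPM and Slc11a1 was 76.8 CPM against 37.1 CPM.

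Antigen presentation genes ran the other way, as all 10 were lower in Kupffer nuclei, and in 6 of 6 mice the list was not higher than in CD45+ 1. H2-Aa was 73.5 CPM against 379 CPM, H2-Eb1 was 96.8 CPM against 464 CPM, and Ciita, the activator of class II genes, was 50.1 CPM against 316 CPM. The class I genes differed less, with B2m at 230 CPM against 326 CPM.

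Inflammatory genes were mixed, with 8 higher and 5 lower. Tlr4, the endotoxin receptor, was 130 CPM against 90.2 CPM, Il1b was 76.8 CPM against 26.5 CPM and Il18 was 114 CPM against 55.7 CPM, while Myd88, Il6, Ccl2 and Cxcl2 were at 0. Of the growth factor and cytokine receptors 5 were higher and 6 lower, with Csf1r at 387 CPM against 127 CPM and Tgfbr1 at 484 CPM against 1153 CPM. In the lipid-associated macrophage list 7 were higher and 7 lower: Abca1, the cholesterol exporter, was 1085 CPM against 639 CPM, Lpl was 180 CPM against 63.6 CPM and Apoe was 674 CPM against 848 CPM.

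**Figure D3:**
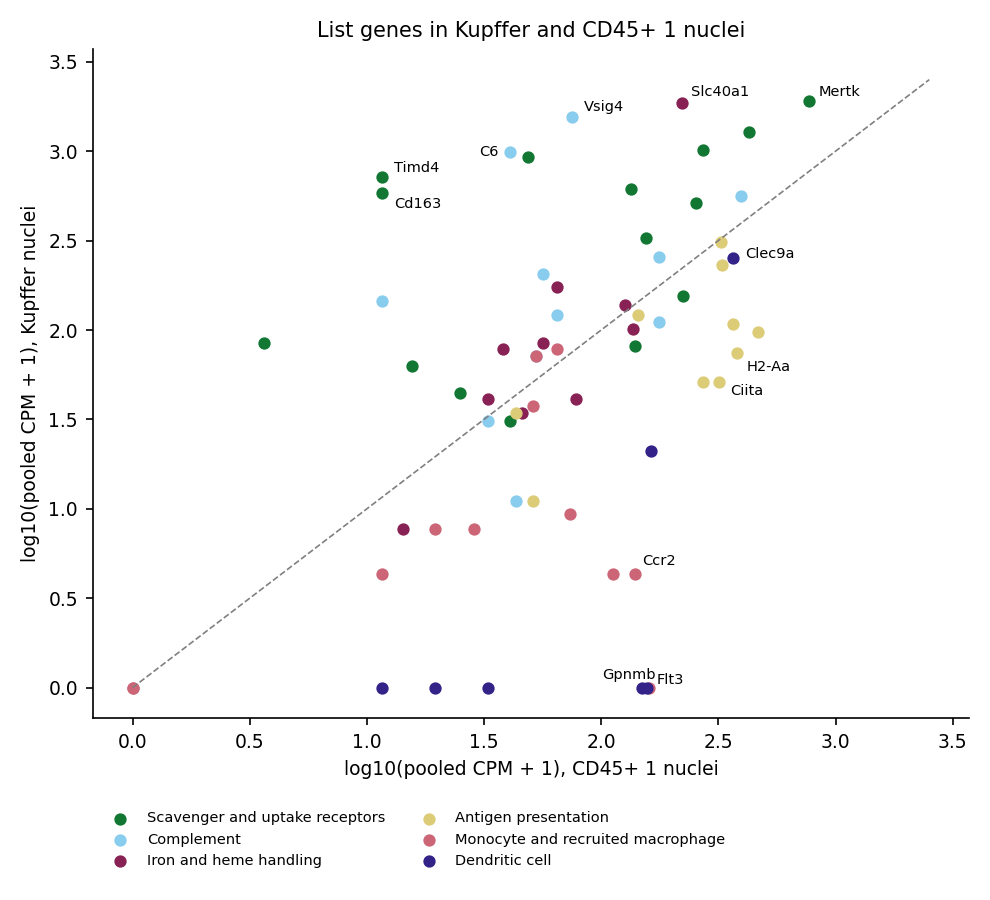
Level of each gene of 6 lists in Kupffer nuclei (y axis) against CD45+ 1 nuclei (x axis), as log10(pooled CPM + 1), 1 point per gene colored by list, with a dashed line where both are equal. Timd4, Cd163, C6 and Slc40a1 lie far above the line, and H2-Aa, Ciita and Ccr2 below it.

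Of 14 genes of NAD synthesis and use 6 were higher and 8 lower than in CD45+ 1. Nampt had 70 UMIs in 39 Kupffer nuclei, at 234 CPM against 180 CPM in CD45+ 1 and 103 CPM in hepatocytes. In Kupffer nuclei it was 290, 157 and 234 CPM in WT and 310, 135 and 202 CPM in HNKO, and the groups overlapped. It did not pass the filter on low counts and was not tested. In hepatocyte nuclei, where Nampt is deleted, its level was 84.8, 105 and 96.9 CPM in WT and 84.1, 148 and 90.8 CPM in HNKO. As these UMIs are counted over the whole gene from its 3′ end and the floxed part is only a part of it, this level does not check the genotype labels. Cd38, an enzyme that consumes NAD, was 728 CPM against 178 CPM in CD45+ 1 and 563 CPM in endothelial nuclei. Parp14 was 301 CPM against 133 CPM, and Parp8 was lower at 280 CPM against 753 CPM.

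The genes with the highest ratios of Kupffer nuclei to all other nuclei extended beyond the lists. Timd4 led at 1387 times, followed by the voltage-gated potassium channel Kcna2 at 1029 times and the synaptic protein gene Rims3 at 808 times. Next to Cd163, Vsig4 and Cd5l stood the inward rectifier channel Kcnj16 (601 times), the MAP kinase scaffold Ksr2 (537 times), the receptor gene Treml4 (504 times), Ms4a8a (475 times), ENSMUSG00000115794 (461 times), the neurturin receptor Gfra2 (405 times), Tmem26 (392 times), the guanylate-binding protein Gbp2b (383 times) and the inhibitory receptor Pilra (364 times). Rims3 was under 3 UMIs over all other nuclei, and its ratio was taken against 3 UMIs. Hepatocyte nuclei held 30041001 of the 33004572 UMIs of all other nuclei, so these ratios are mostly against hepatocytes. Against CD45+ 1 alone, with the same floor of 3 UMIs, the ratios of these 15 genes were far smaller. They ran from 5.42 times (Pilra) to 67.4 times (Timd4), with Treml4 at 6.72 times and ENSMUSG00000115794 at 6.64 times.

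Against all CD45+ nuclei Timd4 (118 times) and Cd163 (96.1 times) led. They were followed by the cytoskeletal linker Epb41l3 (47.3 times), Tmem117 (44.2 times), Kcna2 (41.2 times), Kcnj16 (40.2 times), the procollagen enhancer Pcolce2 (38.5 times), Ank2 (36.3 times), the transporter Slc16a9 (35.4 times) and Phactr1 (35.0 times). Cd5l was 33.7 times, the membrane repair protein Dysf 33.5 times, Vsig4 32.9 times, the glutamate transporter Slc1a3 32.8 times and Tmem26 31.8 times. Kcna2, Pcolce2, Phactr1 and Slc1a3 had under 3 UMIs in CD45+ nuclei, and their ratios were taken against 3 UMIs. In the other direction CD45+ nuclei exceeded Kupffer nuclei for the potassium channel Kcnq5 (81.1 times), the B cell factor Ebf1 (at least 59.7 times, with no Kupffer UMI), Aff3 (52.9 times), the T cell adaptor Skap1 (49.0 times), the transcription factor Mef2c (40.7 times), ENSMUSG00000113669 (40.6 times), Mctp1 (38.0 times), ENSMUSG00000115681 (36.4 times), the chromatin organiser Satb1 (34.9 times) and the motor protein Myo5a (33.8 times). Of these 10 genes ENSMUSG00000115681 alone had more than 3 Kupffer UMIs, and the ratios of the others were taken against 3 UMIs. These ratios pool CD45+ 1 with CD45+ 2 and CD45+ 3. Kcnq5 was 29.6 CPM in CD45+ 1 and 2284 CPM in CD45+ 2, and Skap1 was 9.28 and 1621 CPM. ENSMUSG00000115681 was 2.68 CPM in CD45+ 1, below the 16.7 CPM of Kupffer nuclei. In CD45+ 1 itself Mctp1 was 660, Myo5a 533, ENSMUSG00000113669 506, Mef2c 416, Aff3 405, Ebf1 53.9 and Satb1 46.4 CPM. Across 6358 genes the log2 profile of Kupffer nuclei correlated most with CD45+ 1 (Pearson r = 0.743), then endothelial (0.547) and stellate nuclei (0.514), and least with hepatocytes (0.355). These values are across genes, which are not independent, and the libraries share their pools.

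Kupffer nuclei also varied among themselves. After thinning, the ratio of variance to mean across nuclei had a median of 1.09 over 2913 genes. It was 13.9 for the ribosomal RNA gene Rn18s-rs5, 5.08 for the urea cycle gene Cps1, 4.76 for ENSMUSG00000064339 and 4.48 for Tenm2, which was seen in 7 nuclei. Cps1 was 13684 CPM in hepatocytes against 1673 CPM in Kupffer nuclei. Of its 501 Kupffer UMIs 187 were in the WT 2 nucleus of 14439 UMIs. Colec12, a scavenger receptor of the collectin family, had a value of 3.15 and was seen in 33 nuclei, with 24 UMIs in the highest. A list of 10 cell cycle genes had 49.2 UMIs, of which 31.2 were in 4 nuclei with 5 or more each. These 4 nuclei came from WT 2 (1), HNKO 1 (2) and HNKO 3 (1). They made up 5% of Kupffer nuclei, against 0 of 105 CD45+ 1 nuclei and 1 of 47 CD45+ 2 nuclei. Such nuclei were also 1.82% of cholangiocyte, 1.22% of endothelial and 0.136% of hepatocyte nuclei, so they were not particular to Kupffer nuclei.

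The share of Kupffer nuclei was higher in each HNKO mouse than in each WT mouse, but the design cannot reach a small p. They were 6 of 629 nuclei in WT 1 (0.954%, exact 95% interval 0.351% to 2.06%), 6 of 778 in WT 2 (0.771%, 0.284% to 1.67%) and 4 of 724 in WT 3 (0.552%, 0.151% to 1.41%). They were 29 of 1063 in HNKO 1 (2.73%, 1.83% to 3.89%), 10 of 950 in HNKO 2 (1.05%, 0.506% to 1.93%) and 25 of 1049 in HNKO 3 (2.38%, 1.55% to 3.50%). The groups did not overlap, with HNKO 2 close to WT 1 and its interval covering all WT values. The mean was 2.06% ± 0.885 in HNKO and 0.759% ± 0.201 in WT (SD, n = 3 each), a difference of 1.29 percentage points. The two-sided exact permutation p was 0.1, the smallest that 3 mice against 3 can give, and 0.3 adjusted over 3 comparisons.

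The denominator changed this picture. Of non-hepatocyte nuclei Kupffer nuclei made up 8.95%, 9.23% and 5.97% in WT and 11.5%, 7.63% and 12.4% in HNKO, and the groups overlapped (exact permutation p = 0.3). Of Kupffer and CD45+ nuclei together they made up 28.6%, 27.3% and 36.4% in WT and 29.9%, 27.8% and 35.7% in HNKO, a difference of 0.394 percentage points (exact permutation p = 0.9). A share depends on the other nuclei recovered, so more Kupffer nuclei and fewer of other types cannot be told apart. The median UMI count per Kupffer nucleus was 2945, 4087 and 2956 in WT and 3156, 2782 and 3199 in HNKO, a difference of -284 UMIs (exact permutation p = 0.8).

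**Figure D4:**
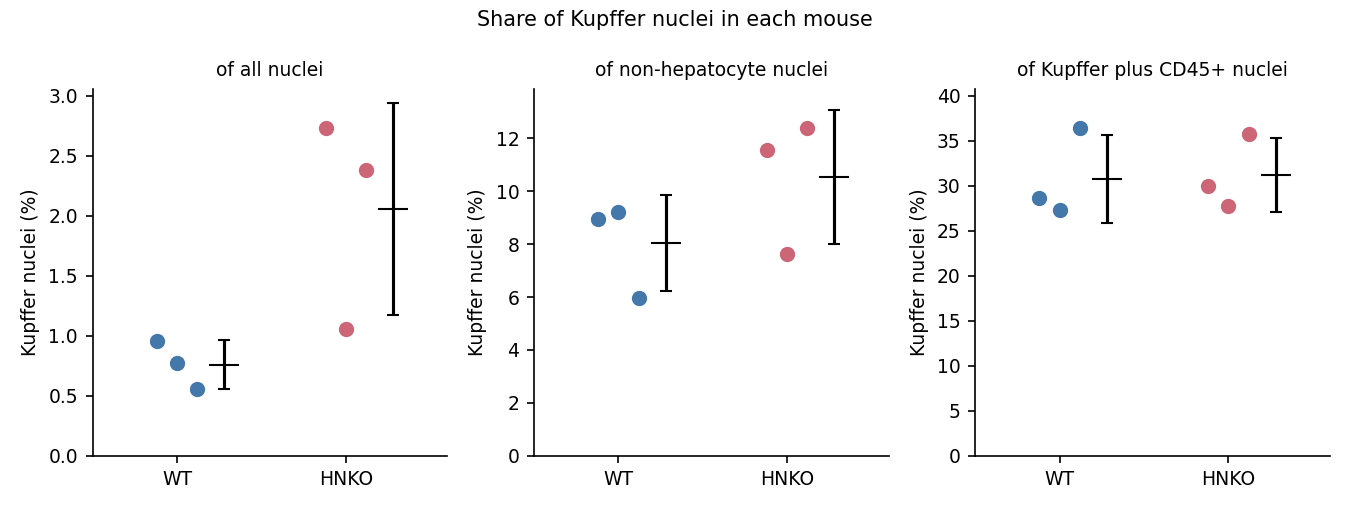
Kupffer nuclei as a percentage of nuclei in each mouse, by denominator, with 1 point per mouse (n = 3 WT and 3 HNKO) and bars for mean ± SD. Of all nuclei the share was 0.552% to 0.954% in WT and 1.05% to 2.73% in HNKO, and of Kupffer plus CD45+ nuclei the groups overlapped.

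RNA of hepatocyte genes was found in Kupffer nuclei at a low level. A list of 10 hepatocyte genes took 0.360% of UMIs in Kupffer nuclei, 0.699% in CD45+ 1 and 2.33% in hepatocytes. By mouse it took 0.397%, 0.980% and 0.226% in WT and 0.270%, 0.221% and 0.313% in HNKO, a difference of -0.266 percentage points (exact permutation p = 0.3). The high value of WT 2 came from 1 nucleus with 14439 UMIs, which held 277 of the 312 hepatocyte list UMIs of that mouse's Kupffer nuclei. This nucleus had 187 UMIs of Cps1, none of Clec4f or Timd4, and 2 of Vsig4. Without it WT 2 was at 0.200% and the difference between groups was -0.0064 percentage points (exact permutation p = 0.9).

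No gene passed the test between HNKO and WT Kupffer nuclei. Of 705 genes tested by edgeR 0 were called (0%), the smallest FDR was 0.423, and 39 had an unadjusted p under 0.05, 14 higher and 25 lower in HNKO. DESeq2 called 0, with 26 at that unadjusted p. The median standard error of a log2 fold change was 0.41, so changes of modest size were not detectable at this depth. In 6.10% of tested genes all HNKO mice were above all WT mice, and in 3.97% all were below.

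No tested gene of the Kupffer list was called. Of the Kupffer list 7 of 12 genes were tested, 5 higher and 2 lower, with a median log2 fold change of 0.41 against -0.01 over all tested genes. Vsig4 was the 1 tested member whose groups did not overlap, with a log2 fold change of 0.88 ± 0.34 (SE; edgeR FDR 0.622). Without the WT 2 nucleus of 14439 UMIs its groups overlapped and its log2 fold change was 0.66. Cd5l had a log2 fold change of 0.70 ± 0.33 (edgeR FDR 0.944). Of the transcription factors 8 of 17 were tested, with a median of -0.03, and Mitf, a regulator of lysosomal genes, had 985, 754 and 779 CPM in WT and 1496, 1925 and 1259 CPM in HNKO. The Mitf log2 fold change was 0.82 ± 0.29 (edgeR FDR 0.622), and its groups did not overlap, as in this direction for 6.10% of all genes tested. Without the WT 2 nucleus of 14439 UMIs Mitf was 1208 CPM in WT 2, next to 1259 CPM in HNKO 3. Its log2 fold change was then 0.66 (edgeR FDR 0.991). Of the uptake receptors 9 of 15 were tested with a median of 0.43, of complement 3 of 11 with 0.31, of the lipid-associated list 4 of 15 with 0.44, and of the NAD list 3 of 14 with 0.47, and none was called. All list medians include the WT 2 nucleus of 14439 UMIs and were not taken without it. Leaving it out moved WT 2 from 1005 to 1495 CPM for Cd5l and from 126 to 0 CPM for Colec12. Some lists share members, as Cd5l is in the Kupffer and lipid-associated lists, so their medians are not separate observations.

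The gene with the lowest p was Adgb, which encodes androglobin (chromosome 10, 10335703 to 10472326, minus strand). Its level was 1694, 817 and 1636 CPM in WT and 534, 512 and 521 CPM in HNKO. The groups did not overlap, as held in this direction for 3.97% of all genes tested. Adgb was named for its low p, so this is no further support. The log2 fold change was -1.38 ± 0.31 (edgeR FDR 0.423). Adgb overlaps Gm48326 on the same strand, so its reads may be shared. Without the WT 2 nucleus of 14439 UMIs, WT 2 was at 1438 CPM and Adgb alone was called among 566 genes, at -1.55 and an edgeR FDR of 0.0457.

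Colec12 was the gene of the 10 lowest p that was higher in HNKO. It was 0, 126 and 312 CPM in WT and 893, 458 and 702 CPM in HNKO. The groups did not overlap, as held in this direction for 6.10% of all genes tested, and Colec12 too was named for its low p. A UMI was seen in 0, 1 and 2 WT nuclei and in 12, 5 and 13 HNKO nuclei. The log2 fold change was 2.40 ± 0.64 (edgeR FDR 0.423). The log2 fold change was 1.79 without WT 1 and 3.10 without WT 3, and not called in either. Without the WT 2 nucleus of 14439 UMIs, Colec12 was at 0 CPM in WT 2 and the log2 fold change was 3.13 (edgeR FDR 0.230). Hepatocyte nuclei held Colec12 at 518 to 663 CPM. Leaving out the 25% of Kupffer nuclei with most hepatocyte RNA left 5, 5 and 3 WT and 22, 7 and 18 HNKO nuclei. The WT 2 nucleus of 14439 UMIs had the highest hepatocyte list share (1.92%) and was among those left out. This fit is therefore not separate from the fit without that nucleus. Among the 442 genes then tested Colec12 (4.61) and Adgb (-1.78) were both called with an edgeR FDR of 0.00438. Over all alternatives the FDR ranged from 0.00438 to 0.998 for Adgb and from 0.00121 to 0.9997 for Colec12.

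The other 8 were lower in HNKO and none was called. Their log2 fold changes follow with SE, at an edgeR FDR of 0.423 to 0.622. They were the liver plasma protein gene Ahsg (-1.93 ± 0.50), the methionine enzyme gene Mat1a (-1.95 ± 0.51), the feedback inhibitor of EGF signals Errfi1 (-2.49 ± 0.67), the bile acid carrier Slco1b2 (-1.80 ± 0.52), the uridine phosphorylase Upp2 (-2.24 ± 0.66), Cps1 (-1.82 ± 0.57), the arginine transporter Slc7a2 (-1.55 ± 0.51) and Tcf20 (-1.08 ± 0.36). Cps1 was 1936, 6316 and 1013 CPM in WT and 1028, 701 and 1224 CPM in HNKO, so the groups overlapped and WT 2 was far above the rest. Of the 25 genes lower at an unadjusted p under 0.05, 16 had a higher level in hepatocytes than in Kupffer nuclei, as did 105 of all 705 tested (14.9%). Without the WT 2 nucleus of 14439 UMIs 8 of these 16 were still tested, 1 had an unadjusted p under 0.05, and their median log2 fold change was -0.47 in place of -1.77. Cps1 was then at 805 CPM in WT 2, with a log2 fold change of -0.29.

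**Figure D5:**
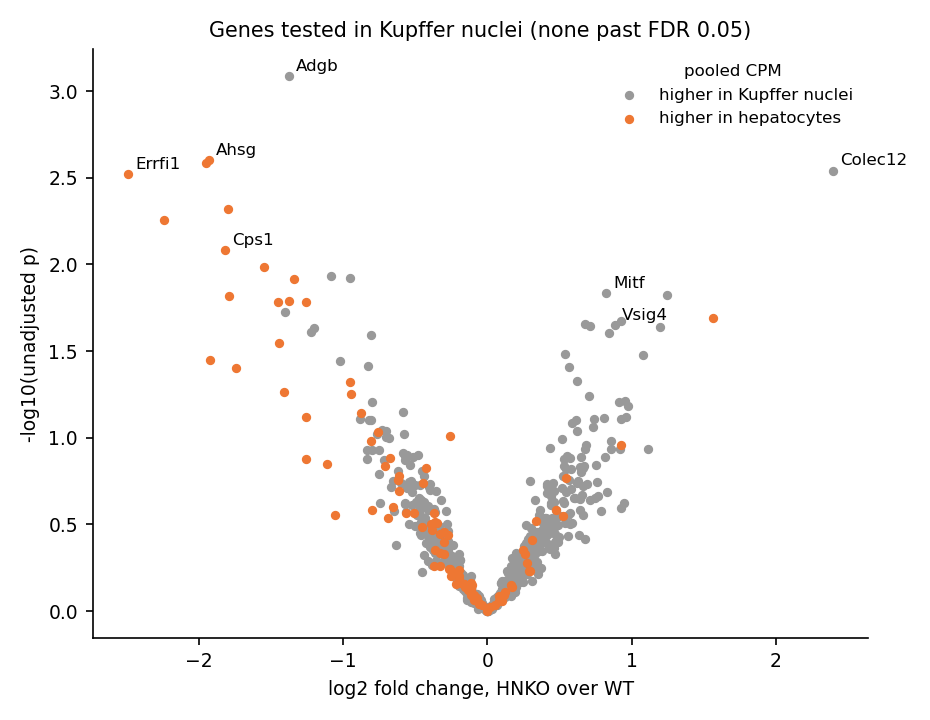
Genotype comparison in Kupffer nuclei, with the log2 fold change of HNKO over WT on the x axis and -log10 of the unadjusted edgeR p on the y axis, 1 point per tested gene, orange where the pooled level was higher in hepatocytes than in Kupffer nuclei. None of the 705 genes was called, and Adgb (-1.38) and Colec12 (2.40) were among the 10 with the lowest p.

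The genotype effect in Kupffer nuclei was also compared with that in hepatocyte nuclei, the cells that carry the deletion. Of 705 genes 0 differed between the 2 cell types by the interaction test of edgeR (0%), with a smallest FDR of 0.529 and 30 genes at an unadjusted p under 0.05. The comparison holds few Kupffer nuclei per WT mouse, so differences may be present that were not detectable at this depth.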

How the data were processed

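Nuclei from the livers of 6 mice were tagged with a hashtag antibody per mouse, pooled, and sequenced on a droplet platform from the 3′ end of transcripts. The labels name Cell Ranger 5.0.1 and Alevin in the processing. The authors deposited a gene by nucleus matrix of raw estimated counts of unique molecular identifiers (UMIs) on GRCm38, a matrix of hashtag counts, and a table with the mouse and the cluster name of each nucleus. They removed nuclei carrying the hashtags of more than one mouse, so doublets within a mouse may remain, and no doublet caller was run here. A separate deposited matrix of transformed values was not used. Of the nonzero values 10.1% were not whole, because reads shared by genes were divided. A nucleus was taken as a Kupffer cell by its deposited cluster name, and its mouse from the deposited table. The members, lists and tests were chosen with earlier results of these data known.

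UMIs were summed per gene and mouse and rounded to whole numbers for the fit, which moved the Kupffer total by 0.346%. The mouse was the replicate. Genes passing the low count filter of edgeR (filterByExpr) were fitted with its quasi-likelihood test (edgeR 4.0.16, R 4.3.3, TMM scaling), with Benjamini-Hochberg adjusted p-values (FDR) and a threshold of 0.05. Standard errors were derived from the fold change and its F statistic. The difference between the genotype effect in Kupffer nuclei and that in hepatocyte nuclei was fitted as an interaction with the mouse as a block, since both sums came from the same animal. Alternatives used RLE scaling, DESeq2 1.42.0, no filter, and other choices of nuclei. Single values per mouse were compared by two-sided exact permutation tests, and intervals for shares are exact 95% binomial intervals that cover counting error only. CPM denotes counts scaled to a common total of UMIs in the pooled or per-mouse sum and is not scaled for gene length, so levels were compared between cells for 1 gene at a time. For thinned shares each nucleus was reduced to 1000 UMIs drawn at random. Fold differences treated a lower side under 3 UMIs as 3 UMIs. The genes named from a ranking were the 15 with the largest ratio against all other nuclei, the 15 with the largest and the 10 with the smallest ratio against the CD45+ nuclei, and the 10 with the lowest p for genotype, together with the members of the lists. In simulated data a log2 change of 2 was recovered for 96 of 100 raised genes (96%) in the Kupffer genotype fit on 767 genes. Of lowered genes that fit recovered 58 of 64 (90.6%). The interaction fit on 726 genes recovered 88 of 154 changed genes (57.1%). Only changed genes that passed the low count filter are in these shares, so those lost at the filter are not counted as missed. False calls numbered 9 in the Kupffer fit and 5 in the interaction fit. The counts were simulated per mouse from 1 shared profile, without single nuclei such as the largest of WT 2.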

Additional observations from a re-analysis of the deposited data

How the results depend on the processing

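The call of 0 genes between HNKO and WT Kupffer nuclei was the same with RLE scaling, with DESeq2 and in every fit without 1 mouse (lowest 0, highest 0). Without a filter on low counts 18 of 12758 genes were called, 4 higher and 14 lower, against 0 of 705 in the main fit. Without the 25% of nuclei with most hepatocyte RNA 2 of 442 were called, and without the 1 nucleus with the most UMIs 1 of 566. That last choice, and keeping only nuclei whose own hashtag was highest, were added after seeing the data. Leaving out the 25% also left out the nucleus with the most UMIs, so those fits share this removal. The cause of these changes in calls was not tested beyond the values given for that nucleus. For the difference from hepatocytes, the fit with no replicate block, which drops the pairing of the 2 sums of a mouse, also called 0, with 38 genes at an unadjusted p under 0.05 by edgeR, and the fits without 1 mouse called 0 to 0. The difference in share of Kupffer nuclei kept its direction without 1 mouse (0.959 to 1.80 percentage points). With own-hashtag nuclei it was 1.01, with HNKO 3 at 1.52%. The difference in UMIs per nucleus ranged from -476 to 94.9 UMIs without 1 mouse, turning positive without WT 2. The difference in hepatocyte RNA ranged from -0.420 to -0.0434 percentage points without 1 mouse, and as a median over nuclei it was reversed at 0.0060. The median share of Kupffer nuclei with a UMI over the 4 markers moved from 89.4% to 65% after thinning. Fits within each pool were not run, because the barcodes do not name their pool.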
